A study of Homo sapiens with 16 samples.

Results

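KRT7, KRT23 and CLDN3 are 3 genes of epithelial structure, and they were chosen with results from the same arrays known, out of 5250 genes measured by at least 1 probe set listed for a single gene. A probe set is a group of short probes on the array that reports on 1 transcript or a few. The 3 genes were read by 5 probe sets, with 2 for KRT7, 1 for KRT23 and 2 for CLDN3, and 0 of these were listed with another gene. Which comparison brought the genes to attention is not recorded, so every change of the 3 genes is given as a description, beside how often genes passed the same threshold in general.

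RNA came from AsPC-1, an established human pancreatic adenocarcinoma cell line, in a pair of experiments on a total of 16 arrays. For the drug experiment they were kept with ICG-001 at 10 µM or with its vehicle DMSO, and there were 3 arrays for each treatment at 6 h and 3 at 24 h. ICG-001 is a small molecule known to keep β-catenin from its coactivator CBP. For the knockdown experiment, control siRNA or CTNNB1 siRNA (CTNNB1 is the gene of β-catenin) was lipofected at 20 nM, and 2 arrays per siRNA were read at 48 h. No untransfected cells and no 48 h drug group were among the arrays. All groups share 1 cell line. Replicates are titled biological, but nothing says that they were separate cultures, so p-values and errors measure the spread between these arrays, which may be technical.

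Keratins are the intermediate filament proteins of epithelial cells, and a filament pairs a type I with a type II keratin. KRT7 is a type II keratin of simple and ductal epithelia that pathologists use as a marker of pancreatic ductal tumours, and KRT23 is a less studied type I keratin found in some glandular epithelia and carcinomas. CLDN3 is a claudin, a membrane protein with paired extracellular loops that forms the paracellular seal of tight junctions. β-Catenin works in the same cells both at adherens junctions, where it links cadherins to the actin cytoskeleton through α-catenin, and in the nucleus, where it acts with TCF/LEF factors in Wnt signalling. In bulk RNA, fewer cells that express a gene and less RNA per cell cannot be told apart.

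The RefSeq promoter table held CLDN3 alone of the 3 genes. The 250 bases before its start lie at chr7:73770271-73770520 on the minus strand of GRCh38.p14. They are shown because CLDN3 was lower with CTNNB1 siRNA and, after quantile normalization, at 24 h of ICG-001. The fall with ICG-001 did not pass under the deposited scaling. The sequence lets the CLDN3 promoter be read against the letters that TCF/LEF factors prefer. Capitals mark GGGCGG, the GC box, on either strand:

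CLDN3: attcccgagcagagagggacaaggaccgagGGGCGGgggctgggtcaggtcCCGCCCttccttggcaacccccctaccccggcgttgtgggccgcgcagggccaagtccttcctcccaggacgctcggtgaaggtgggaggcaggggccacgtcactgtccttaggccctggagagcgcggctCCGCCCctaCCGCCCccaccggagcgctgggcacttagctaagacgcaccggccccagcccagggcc

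The GC box letters occurred 4 times, 220, 199, 67 and 58 bases before the start, and 42.6% of the 35116 promoters of the same length held at least 1. The TCF/LEF letters CTTTGAA or CTTTGAT or CTTTGTA or CTTTGTT, searched on both strands, occurred 0 times, against 12% of all promoters with at least 1. The E-box CAGGTG, the letters that SNAIL and ZEB repressors prefer, also occurred 0 times on either strand (17.5% of all promoters held it), as did TATAAA (10.7%). The stretch held 71.6% G and C, above the median of 58.0% over all promoters. Absent letters say only that the window does not hold them, and no measurement of factor binding was analysed here.

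Stated intensities are the deposited values. The median intensity was 20.6 to 28.6 on the drug experiment's arrays and 12.7 to 13.05 on the knockdown arrays. The mean intensity was 163.7 to 165.1 on the ICG-001 arrays at 6 h and 171.3 to 178.9 at 24 h, against 131.7 to 136.5 and 134.7 to 136.8 on the matching DMSO arrays. Fitted changes are differences of log2(intensity + 16) after quantile normalization, which gives every array the same distribution, so for bright genes such as these they lie below the ratio of intensities wherever the ICG-001 arrays are brighter as a whole. For that reason the value under the deposited scaling is given beside the brighter probe set of each of the 3 genes, and for other genes where it changes the call, the sign or the size. CTNNB1 had no probe set among the named ones analysed here, so the knockdown itself was not checked.

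Of the epithelial or ductal markers listed for checking the label, 6 of 16 were measured, and they included KRT7 itself. Here and below, measured means that the deposited table held a probe set listed for the gene alone. That table holds only probe sets that varied over the 16 arrays. A gene outside these counts may therefore have been on the array, and its level is not known here. Steadier probe sets of a measured gene may likewise be outside the table, so each level below is that of the probe set used. CLDN7, an epithelial claudin, stood at 1445 in DMSO at 6 h, and MUC1, the transmembrane mucin of ductal cells, at 966. KRT19 stood lower, at 85.1, and CFTR, the chloride channel of ductal cells, near the bottom of the range at 11.8. CDH1, the gene of E-cadherin, stood at 290 in the same group but at 10.5 in control siRNA. Of the 5 markers besides KRT7, 1 rose (CLDN7) and 0 fell at 6 h of ICG-001, 1 rose (CLDN7) and 1 fell (MUC1) at 24 h, and 1 rose (CDH1) and 1 fell (CLDN7) with CTNNB1 siRNA. The CDH1 rise was between low means, 10.5 and 15.9. It did not pass under the deposited scaling, with 64 added before log2 or in a fit of the siRNA arrays alone. The MUC1 change at 24 h was -0.28 ± 0.08 (SE, adjusted p = 0.0154 by limma) after quantile normalization, but 0.13 under the deposited scaling, where it did not pass. Of the mesenchymal markers 7 of 13 were measured. Against the shares of all genes given above, limma called 0 of the 7 at 6 h or 24 h of ICG-001 or in the knockdown. At an unadjusted p under 0.05 there were 1, 0 and 1. With the deposited scaling 1 of the 7, ACTA2, the gene of smooth muscle actin, rose with CTNNB1 siRNA, at 0.46 (adjusted p = 0.0222 by limma). VIM, the mesenchymal filament vimentin, stood at 237 in DMSO at 6 h and at 51.3 in control siRNA. Acinar and islet markers were measured for 0 of 6 genes each, and of the endothelial and leukocyte markers PECAM1 stood at 10.0 and PTPRC at 24.5 in DMSO at 6 h.

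KRT7 was lower with ICG-001 and higher with CTNNB1 siRNA on its brighter probe set alone. Its brighter probe set, 209016_s_at, read 1468.38, 1506.69 and 1397.81 on the DMSO arrays at 6 h, and 1285.57, 1264.52 and 1232.2 on the ICG-001 arrays. The groups did not overlap, and the mean was 1458 ± 55.2 (SD, n = 3) in DMSO and 1261 ± 26.9 (SD, n = 3) in ICG-001. At 24 h the DMSO arrays read 1250.91, 1565.57 and 1590.35, and the ICG-001 arrays 708.13, 709.59 and 735.6. All 3 ICG-001 arrays at 24 h lay below every other array of the drug experiment, with a mean of 717.8 ± 15.5 (SD, n = 3) against 1469 ± 189 in DMSO, or 2.05 times lower. One DMSO array at 24 h lay within the range of the ICG-001 arrays at 6 h, while the other two lay above all DMSO arrays at 6 h.

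In the knockdown experiment the same KRT7 probe set read 104.16 and 80.25 with control siRNA and 248.5 and 255.09 with CTNNB1 siRNA. The CTNNB1 siRNA mean, 251.8 ± 4.66 (SD, n = 2), was 2.73 times the control's 92.2 ± 16.9 (SD, n = 2). Both knockdown groups lay far below all 12 arrays of the drug experiment. The fitted log2 change of KRT7 was -0.59 ± 0.09 (SE) at 6 h of ICG-001, -1.35 ± 0.09 at 24 h and 1.06 ± 0.11 with CTNNB1 siRNA. Under the deposited scaling these were -0.21, -1.01 and 1.32. The 6 h difference did not pass the threshold of an adjusted p under 0.05 with that scaling (adjusted p = 0.164 by limma), nor with arrays centred on their medians (-0.22, adjusted p = 0.218), whereas those at 24 h and with CTNNB1 siRNA passed under all 3 scalings.

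The second KRT7 probe set, 1558393_at, did not show these differences. It stood at 128.5 ± 7.97 (SD, n = 3) in DMSO and 157.4 ± 18.6 in ICG-001 at 6 h, and at 131.5 ± 12.2 and 151.2 ± 15.5 at 24 h. The ICG-001 arrays lay above the DMSO arrays at 6 h without overlap, from 136.27 to 171.23 against 119.4 to 134.2, and the groups overlapped at 24 h. It read 30.34 and 46.32 with control siRNA and 26.59 and 38.56 with CTNNB1 siRNA, which also overlapped. Its fitted log2 changes were 0.23 ± 0.14 (SE), 0.09 ± 0.14 and -0.21 ± 0.17, of the opposite sign to those of 209016_s_at in all 3 comparisons, and none of the 3 passed the threshold. They were 0.26, 0.18 and -0.16 under the deposited scaling. The part of the KRT7 transcript that each probe set reads is not given in the sources used here. Both probe sets were lower on all 4 knockdown arrays than on all 12 drug arrays. The deposited table holds only probe sets that varied over the 16 arrays, and a step between experiments adds to that variation. Nothing is therefore read from the step that the probe sets share.

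**Figure D1:**
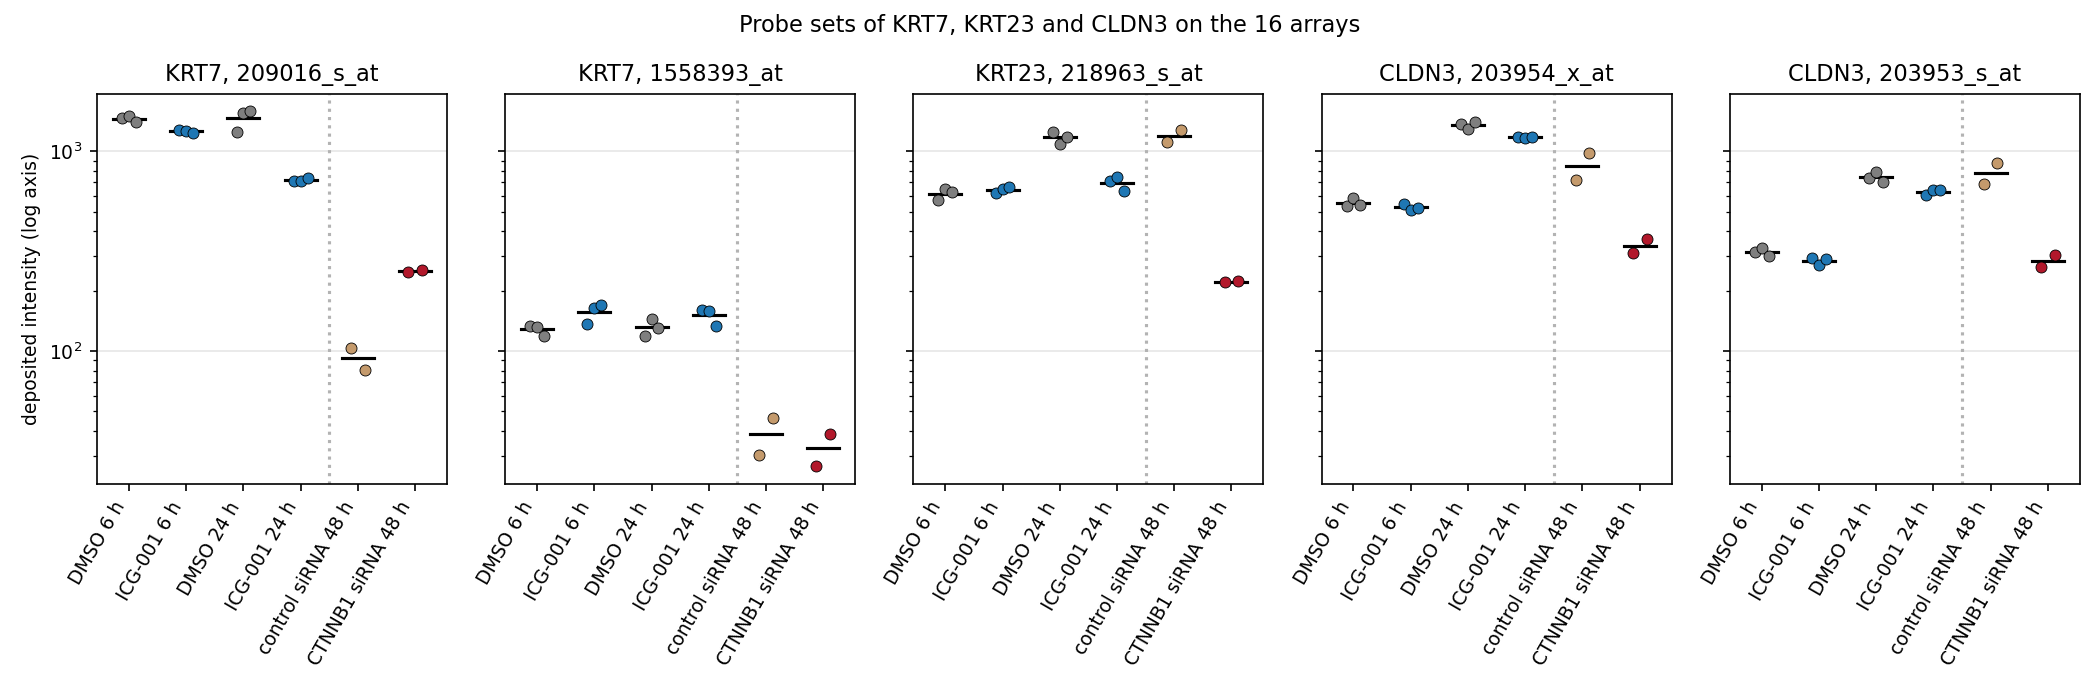
Deposited intensity (log axis) of the 5 probe sets of KRT7, KRT23 and CLDN3 on each of the 16 arrays, with a point for each array and a line at the group mean; the dotted line separates the drug experiment from the knockdown experiment. The 3 ICG-001 arrays at 24 h lie between 708.13 and 735.6 for KRT7 209016_s_at, below the DMSO arrays, while KRT7 1558393_at shows no such step, and KRT23 and CLDN3 are lowest with CTNNB1 siRNA except that CLDN3 203953_s_at overlaps ICG-001 at 6 h there.

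KRT23 overlapped between the treatments at 6 h and was lower with ICG-001 at 24 h and with CTNNB1 siRNA. It read 569.6, 647.13 and 629.04 in DMSO and 621.98, 648.01 and 661.46 in ICG-001 at 6 h. These groups overlapped, with means of 615.3 ± 40.6 and 643.8 ± 20.1 (SD, n = 3 each). At 24 h it read 1258.64, 1094.33 and 1178.16 in DMSO and 708.81, 748.05 and 634.61 in ICG-001, without overlap. The DMSO mean at 24 h, 1177 ± 82.2 (SD, n = 3), was 1.91 times that at 6 h. The ICG-001 mean at 24 h, 697.2 ± 57.6 (SD, n = 3), was 1.08 times that at 6 h, and its arrays overlapped those of both 6 h groups. The difference at 24 h thus lay between a vehicle level that was higher than at 6 h and a drug level that overlapped the 6 h range.

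With control siRNA KRT23 read 1113.68 and 1275.06, and with CTNNB1 siRNA 220.92 and 225.52. The CTNNB1 siRNA arrays were the lowest of all 16, and their mean of 223.2 ± 3.25 (SD, n = 2) was 5.35 times lower than the control's 1194 ± 114 (SD, n = 2). The fitted log2 change of KRT23 was -2.32 ± 0.11 (SE) with CTNNB1 siRNA, the 3rd in size of the 5250 genes, and -2.34 under the deposited scaling. With ICG-001 it was -0.18 ± 0.09 at 6 h and -1.04 ± 0.09 at 24 h, and 0.07 and -0.74 under the deposited scaling, so the sign at 6 h turned with the scaling and the difference at 24 h kept its sign and stayed past the threshold.

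CLDN3 was higher at 24 h than at 6 h whatever the treatment, a little lower with ICG-001 at 24 h, and lower with CTNNB1 siRNA. Its brighter probe set, 203954_x_at, read 533.85, 583.19 and 540.99 in DMSO and 546.87, 508.43 and 524.08 in ICG-001 at 6 h. These groups overlapped. At 24 h it read 1370.89, 1292.25 and 1409.39 in DMSO and 1182.23, 1172.05 and 1182.84 in ICG-001. The ICG-001 arrays at 24 h lay in a narrow band under all DMSO arrays, with means of 1179 ± 6.06 and 1358 ± 59.7 (SD, n = 3 each), or 1.15 times lower. The mean at 24 h was 2.46 times that at 6 h with DMSO and 2.24 times with ICG-001.

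The same CLDN3 probe set read 715.9 and 985.06 with control siRNA and 309.62 and 364.99 with CTNNB1 siRNA. The CTNNB1 siRNA mean of 337.3 ± 39.2 (SD, n = 2) was 2.52 times lower than the control's 850.5 ± 190 (SD, n = 2), and both arrays lay below the drug experiment's lowest, 508.43. The fitted log2 change of CLDN3 was -1.32 ± 0.12 (SE) with CTNNB1 siRNA and -1.28 under the deposited scaling. With ICG-001 it was -0.27 ± 0.10 at 6 h, which did not pass except in a fit of the 12 drug arrays alone (adjusted p = 0.00345) and with replicate numbers as a block, and -0.62 ± 0.10 at 24 h. The 6 h value shrank to -0.07 under the deposited scaling (adjusted p = 0.821 by limma) and to -0.08 with arrays centred on their medians (adjusted p = 0.809). The difference at 24 h was -0.20 under the deposited scaling and did not pass there (adjusted p = 0.131 by limma), and it was -0.33 and passed with arrays centred on their medians.

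The second CLDN3 probe set, 203953_s_at, gave changes of the same sign as the first in these 3 comparisons. It stood at 313.9 ± 13.4 (SD, n = 3) in DMSO and 284.2 ± 12.7 in ICG-001 at 6 h, and at 744.5 ± 45.3 and 630.0 ± 18.3 at 24 h. The groups did not overlap at either time. It read 686.72 and 871.43 with control siRNA and 262.99 and 302.52 with CTNNB1 siRNA, 2.76 times lower on the mean. Its fitted log2 changes were -0.25 ± 0.09 (SE), -0.50 ± 0.09 and -1.39 ± 0.11. The deposited scaling gave -0.14, -0.23 and -1.41, and of these the first 2 did not pass (adjusted p = 0.437 and 0.0506 by limma). The suffix of the first probe set, _x_at, is the array maker's mark for probes that can also match other sequences, which was not tested here.

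Of the 3 genes, 1 (KRT7, lower) passed the threshold at 6 h of ICG-001, where 13.8% of all genes did. All 3 passed, lower, at 24 h, where 20.5% of all genes did. With CTNNB1 siRNA 1 passed higher (KRT7) and 2 lower, where 12% of all genes (631 of 5250) passed. Because the genes were chosen on these arrays, nothing is read from these counts. The median log2 change over all 5250 genes was -0.02, -0.02 and 0.01 in the same order.

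**Figure D2:**
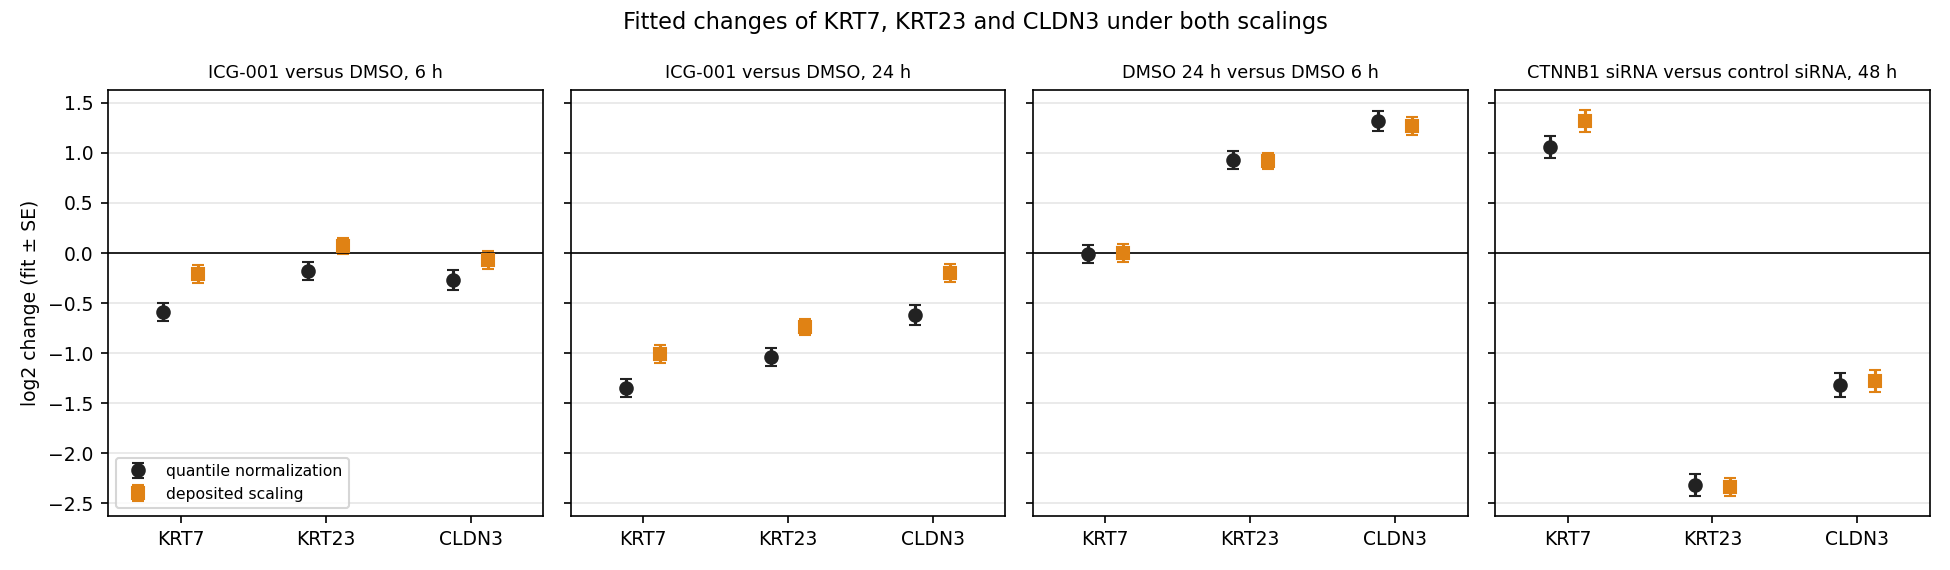
Fitted log2 change ± SE of KRT7, KRT23 and CLDN3 in 4 comparisons, after quantile normalization (circles) and under the deposited scaling (squares), with 0 as no change. With CTNNB1 siRNA KRT7 lies above 0 (1.06) and KRT23 and CLDN3 below (-2.32 and -1.32) under both scalings, and in the ICG-001 comparisons the deposited scaling lies closer to 0, or above it for KRT23 at 6 h. KRT7 and CLDN3 are each drawn for the brighter probe set.

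Time in culture with vehicle alone separated the genes. The fitted log2 difference of DMSO at 24 h from DMSO at 6 h was -0.01 ± 0.09 (SE) for KRT7, 0.93 ± 0.09 for KRT23 and 1.32 ± 0.10 for CLDN3, and the last was the 18th in size of all genes. The latter 2 of the 3 genes passed, higher, against 8.63% of all genes. Under the deposited scaling the values were 0.00, 0.92 and 1.27. The second CLDN3 probe set gave 1.25 ± 0.09, and the second KRT7 probe set -0.01 ± 0.14.

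The ICG-001 change at 24 h minus that at 6 h was -0.76 ± 0.13 (SE) for KRT7, -0.86 ± 0.12 for KRT23 and -0.35 ± 0.14 for CLDN3. KRT7 and KRT23 passed, so 2 of 3, lower, against 7.81% of all genes. CLDN3 did not pass, except with replicate numbers as a block (adjusted p = 0.047) and in a fit of the 12 drug arrays alone (adjusted p = 0.012 by limma). Under the deposited scaling these differences were -0.80, -0.81 and -0.13. The 24 h change with ICG-001 minus the CTNNB1 siRNA change was -2.41 ± 0.14 for KRT7, 1.28 ± 0.14 for KRT23 and 0.70 ± 0.16 for CLDN3, and all 3 passed (2 higher and 1 lower), against 15.9% of all genes. The deposited scaling gave -2.33, 1.59 and 1.08, and without control siRNA replicate 2 the CLDN3 value was 0.44. KRT23 and CLDN3 were lower in both comparisons and by more with CTNNB1 siRNA. For KRT7 on its brighter probe set the changes had opposite signs. The second KRT7 probe set, 1558393_at, gave -0.14 ± 0.20 (SE) for 24 h minus 6 h and 0.30 ± 0.22 for drug minus siRNA. Neither passed, and the latter had the opposite sign to that of the brighter probe set. The second CLDN3 probe set gave -0.25 ± 0.13 and 0.89 ± 0.14, with the signs of the first. Treatment, time and experiment differ together between the drug change and the siRNA change and cannot be told apart.

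In the order of mean intensity KRT7 209016_s_at stood highest in DMSO at 24 h and DMSO at 6 h, whose arrays overlapped, followed by ICG-001 at 6 h, ICG-001 at 24 h, CTNNB1 siRNA and control siRNA. None of the last 4 groups overlapped its neighbour above. KRT23 stood highest in control siRNA and DMSO at 24 h, which overlapped. ICG-001 at 24 h, ICG-001 at 6 h and DMSO at 6 h came next and overlapped, and CTNNB1 siRNA lay apart at the bottom. CLDN3 203954_x_at ran from DMSO at 24 h through ICG-001 at 24 h and control siRNA to DMSO at 6 h and ICG-001 at 6 h, which overlapped, and then to CTNNB1 siRNA. On the second CLDN3 probe set control siRNA moved to the top, overlapping DMSO at 24 h, and CTNNB1 siRNA overlapped ICG-001 at 6 h.

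The level of KRT7 in control siRNA stood apart from that in vehicle. On the deposited log2(intensity + 16) scale control siRNA minus DMSO at 24 h was -3.78 for KRT7 on 209016_s_at, and 14 of 5250 genes (0.27%) had a lower value. The same difference was 0.02 for KRT23 and -0.68 for CLDN3 on 203954_x_at, against a median of -0.34 over all genes. The second probe sets gave smaller steps, -1.45 for KRT7 on 1558393_at and 0.06 for CLDN3 on 203953_s_at, where control siRNA overlapped DMSO at 24 h. CDH1 (-3.60) and CDH3 (-3.90), the genes of E-cadherin and P-cadherin, lay near KRT7, and CLDN7 was at -0.24. These are differences between separate experiments and carry no test: transfection, time and experiment cannot be told apart. The 5250 genes come from a table in which every probe set had a coefficient of variation of at least 0.40. Genes with a large step between the experiments reach that value more easily, so 0.27% is a share within a selected set. For the same reason nothing is read from CDH1 and CDH3 lying near KRT7. For KRT7 on 209016_s_at both CTNNB1 siRNA arrays, although higher than the control siRNA arrays, lay far under the drug experiment: the top one read 255.09 and the lowest drug array 708.13.

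KRT23 and CLDN3 followed each other more closely than either followed KRT7. Over the 16 arrays Pearson's r of the normalized log2 values was 0.82 between KRT23 and CLDN3, 0.05 between KRT7 and KRT23 and 0.11 between KRT7 and CLDN3. Over the 12 drug arrays alone these were 0.81, 0.53 and 0.04. The points share groups and experiments, so r describes the common steps between groups, and no p is given.

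Among 3936 other genes with a mean log2 value at or above the 25th percentile, those with the pattern most like KRT7 were LINC01140, a long noncoding RNA, SCEL, the cornified envelope protein sciellin, and IFI27L2, an interferon-inducible family member, all at r = 0.97. Over the 12 drug arrays r was 0.87, 0.96 and 0.88. SCEL stood at 678.87, 678.78 and 680.01 in DMSO and at 434.78, 432.79 and 397.58 in ICG-001 at 24 h. It read 171.5 and 141.87 with control siRNA and 285.68 and 257.1 with CTNNB1 siRNA. SCEL was picked for its likeness to the brighter KRT7 probe set on these arrays, so its matching directions are no separate result.

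The genes most like KRT23 were LONRF2, a RING finger protein (r = 0.97, and 0.94 over the drug arrays), BMP4, a secreted bone morphogenetic protein (0.88 and 0.81), and PPP1R1B, the phosphatase inhibitor DARPP-32 (0.88 and 0.92). LONRF2 read 971.12, 916.37 and 900.25 in DMSO and 540.77, 518.99 and 501.43 in ICG-001 at 24 h, and 742.71 and 1076.21 with control siRNA and 192.68 and 238.12 with CTNNB1 siRNA. The genes most like CLDN3 were MVB12B, a subunit of the ESCRT-I sorting complex (0.99 and 0.99), CLEC2B, a C-type lectin (0.95 and 0.99), and TRIM31, a ubiquitin ligase (0.91 and 0.96). MVB12B read 223.18, 229.46 and 238.58 in DMSO at 6 h and 442.3, 459.93 and 443.38 at 24 h. With CTNNB1 siRNA it read 114.55 and 125.09, its lowest values on the 16 arrays.

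Of 55 listed keratins 11 were measured, in the sense of a probe set in the deposited selection. Of the 9 besides KRT7 and KRT23 limma called 0 at 6 h and 0 at 24 h of ICG-001 (1 and 1 at an unadjusted p under 0.05), against 13.8% and 20.5% of all genes. Their median log2 changes were 0.12 and -0.24. With CTNNB1 siRNA 1 of 9 rose, KRT16, a type I keratin of stressed and proliferating squamous epithelium, at 0.67 ± 0.17 (SE, adjusted p = 0.0143), against 12% of all genes called. KRT16 read 116.53 and 54.6 with control siRNA and 185.17 and 138.33 with CTNNB1 siRNA. Its change was 1.03 without control siRNA replicate 1, 0.30 without control siRNA replicate 2 and 0.50 without CTNNB1 siRNA replicate 1, and the latter 2 values did not pass, nor did 0.67 in a fit of the 4 siRNA arrays alone (adjusted p = 0.159). In a fit of the 12 drug arrays alone KRT16 did pass, at 0.32 at 6 h and -0.29 at 24 h. KRT19, the type I keratin of ductal cells, stood at 93.9 in DMSO and 80.6 in ICG-001 at 24 h, with a log2 change of -0.27 ± 0.18 that did not pass.

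Of 24 listed claudins 11 were measured, 10 of them besides CLDN3. After quantile normalization 1 of the 10 rose and 0 fell at 6 h and again at 24 h of ICG-001, and 0 rose and 2 fell with CTNNB1 siRNA, where 13.8%, 20.5% and 12% of all genes were called. CLDN7, a claudin of the basolateral membrane and tight junction, rose with ICG-001. By limma the rise was 0.37 ± 0.05 (SE, adjusted p = 2.98e-05) at 6 h and 0.34 ± 0.05 (adjusted p = 4.85e-05) at 24 h. CLDN3 had the opposite sign at both times, at -0.27 and -0.62, and in the main fit it passed at 24 h alone. On the deposited scaling the rises of CLDN7 were 0.83 and 0.93, while CLDN3 stood at -0.07 and -0.20 and did not pass. CLDN7 read 1739.99, 1754.04 and 1963.83 in DMSO and 3485.93, 3392.25 and 3528.8 in ICG-001 at 24 h. With CTNNB1 siRNA CLDN7 fell by 0.65 on the log2 scale (SE 0.06, adjusted p = 1.09e-06), from 1525.69 and 1547.36 to 1005.4 and 1008.22, so CLDN3 and CLDN7 were both lower in that experiment. CLDN2, a claudin that forms cation pores, fell with CTNNB1 siRNA as well, at -1.40 ± 0.26 (SE, adjusted p = 0.00115), from 297.82 and 672.23 to 124.18 and 168.73 (-1.53 under the deposited scaling). Without control siRNA replicate 2 its change was -0.84. The other 8 claudins passed in none of the 3 main comparisons after quantile normalization, and their group means lay at or below 301 in the drug experiment. One of them, CLDN15, a claudin of cation pores in leaky epithelia, rose under the deposited scaling at 24 h (0.36, adjusted p = 0.023) and with CTNNB1 siRNA (0.46, adjusted p = 0.0352 by limma).

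Of 18 other tight junction genes 8 were measured. At 6 h of ICG-001 1 rose and 1 fell, at 24 h 1 rose and 2 fell, and with CTNNB1 siRNA 2 rose and 0 fell, where 13.8%, 20.5% and 12% of all genes were called. OCLN, which encodes occludin, a tight junction membrane protein, rose by 0.51 ± 0.08 (SE) at 6 h and by 0.30 ± 0.08 at 24 h of ICG-001. The rises were 0.80 and 0.69 under the deposited scaling, and with median centring 0.79 and 0.57. It read 880.14, 895.94 and 919.33 in DMSO and 1406.41, 1568.28 and 1419.36 in ICG-001 at 24 h. After quantile normalization the 24 h rise of OCLN was 0.25 and did not pass without ICG-001 24 h replicate 2, and likewise without DMSO 24 h replicate 1. CGN, which encodes cingulin, an adaptor between the tight junction and actomyosin, had the signs of the brighter KRT7 probe set, opposite to those of the second. CGN fell by 0.51 (SE 0.10) at 6 h and by 0.78 (SE 0.10) at 24 h of ICG-001 and rose by 0.88 ± 0.12 with CTNNB1 siRNA. Under the deposited scaling its 6 h value was -0.27 and did not pass. With CTNNB1 siRNA CGN read 1808.23 and 1745.24, against 1134.99 and 812.52 with control siRNA.

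PATJ, a scaffold of the Crumbs polarity complex, rose with CTNNB1 siRNA by 0.71 ± 0.12 (SE, adjusted p = 0.000623), from 16.4 and 15.75 to 29.51 and 30.04. These are low intensities, and the rise did not pass in a fit of the 4 siRNA arrays alone (adjusted p = 0.32). PARD6B, a polarity protein, fell by 0.20 (SE 0.06) at 24 h of ICG-001 after quantile normalization but rose by 0.32 under the deposited scaling, so its direction turned with the scaling. At 6 h it rose by 0.36 under the deposited scaling and did not pass after quantile normalization. Its fall also did not pass without ICG-001 24 h replicate 2 (-0.17) or DMSO 24 h replicate 2 (-0.16).

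Of 25 desmosome and adherens junction genes 9 were measured. At 6 h of ICG-001 0 rose and 3 fell, namely PKP4 (-0.49 ± 0.09, SE), CDH3 (-0.35 ± 0.06) and DSC2 (-0.64 ± 0.15), but under the deposited scaling none of these 3 passed (-0.26, 0.00 and -0.30) and 2 rose, DSG3 (0.67) and PPL (0.48). The share of all genes called after quantile normalization was 13.8% there and 20.5% at 24 h. The 6 h fall of DSC2 did not pass without DMSO 6 h replicate 1 (-0.47). At 24 h 1 rose and 4 fell. The riser was PPL, which encodes periplakin, a cytolinker between keratin filaments and the cell cortex, at 0.30 ± 0.07. Under the deposited scaling 2 rose, PPL (0.69) and CDH3 (0.31, adjusted p = 0.00112), and 2 fell. PKP4, an armadillo-repeat protein related to plakophilins, fell by 0.64 (SE 0.09) and DSC2, the desmosomal cadherin desmocollin, by 0.87 (SE 0.15), and both also fell under the deposited scaling (-0.40 and -0.57). The falls of DSG3 (-0.45) and of NECTIN2 (-0.24) at 24 h did not pass there, where DSG3 stood at 0.10. That of NECTIN2 was -0.20, -0.24 and -0.15 and did not pass without ICG-001 24 h replicate 1, ICG-001 24 h replicate 3 and DMSO 24 h replicate 3, in that order.

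With CTNNB1 siRNA 4 of the 9 rose and 2 fell, where 12% of all genes were called, and under the deposited scaling 3 rose and 2 fell. CDH3 rose by 0.87 ± 0.07 (SE), from 33.83 and 33.76 to 89.2 and 81.29, and PPL by 0.94 ± 0.09, from 289.97 and 222.48 to 547.38 and 555.11. NECTIN2, an immunoglobulin-like adhesion molecule of adherens junctions, rose by 0.79 ± 0.10. CDH1 rose by 0.42 ± 0.13 (adjusted p = 0.0487), from 12.35 and 8.68 to 15.21 and 16.62, and did not pass under the deposited scaling (0.27), nor without any 1 of control siRNA replicate 2, CTNNB1 siRNA replicate 1 and CTNNB1 siRNA replicate 2 (0.25, 0.46 and 0.37). DSC2 fell by 0.81 (SE 0.19) and DSG3, a desmosomal cadherin of stratified epithelia, by 0.98 (SE 0.07). As for KRT7, CDH3 lay far lower in the knockdown experiment than in the drug experiment, where its lowest array read 693.44.

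Of 17 cytolinkers and other intermediate filament genes 4 were measured. SYNM, which encodes synemin, a large intermediate filament protein that copolymerises with vimentin or desmin, fell by 1.60 (SE 0.11) at 6 h and by 0.94 (SE 0.11) at 24 h of ICG-001. It read 269.79, 295.49 and 296.17 in DMSO and 152.3, 198.88 and 148.93 in ICG-001 at 24 h. The falls were smaller under the deposited scaling (-1.43 and -0.74). Its change with CTNNB1 siRNA was 0.32 ± 0.13 and did not pass after quantile normalization, but it was 0.45 and passed both under the deposited scaling (adjusted p = 0.0323) and with median centring (adjusted p = 0.0277 by limma). No other gene of that list passed in the 3 main comparisons, so 1 of 4 was called at each drug time (13.8% and 20.5% of all genes) and 0 of 4 with CTNNB1 siRNA (12%), where limma had 1 at an unadjusted p under 0.05.

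**Figure D3:**
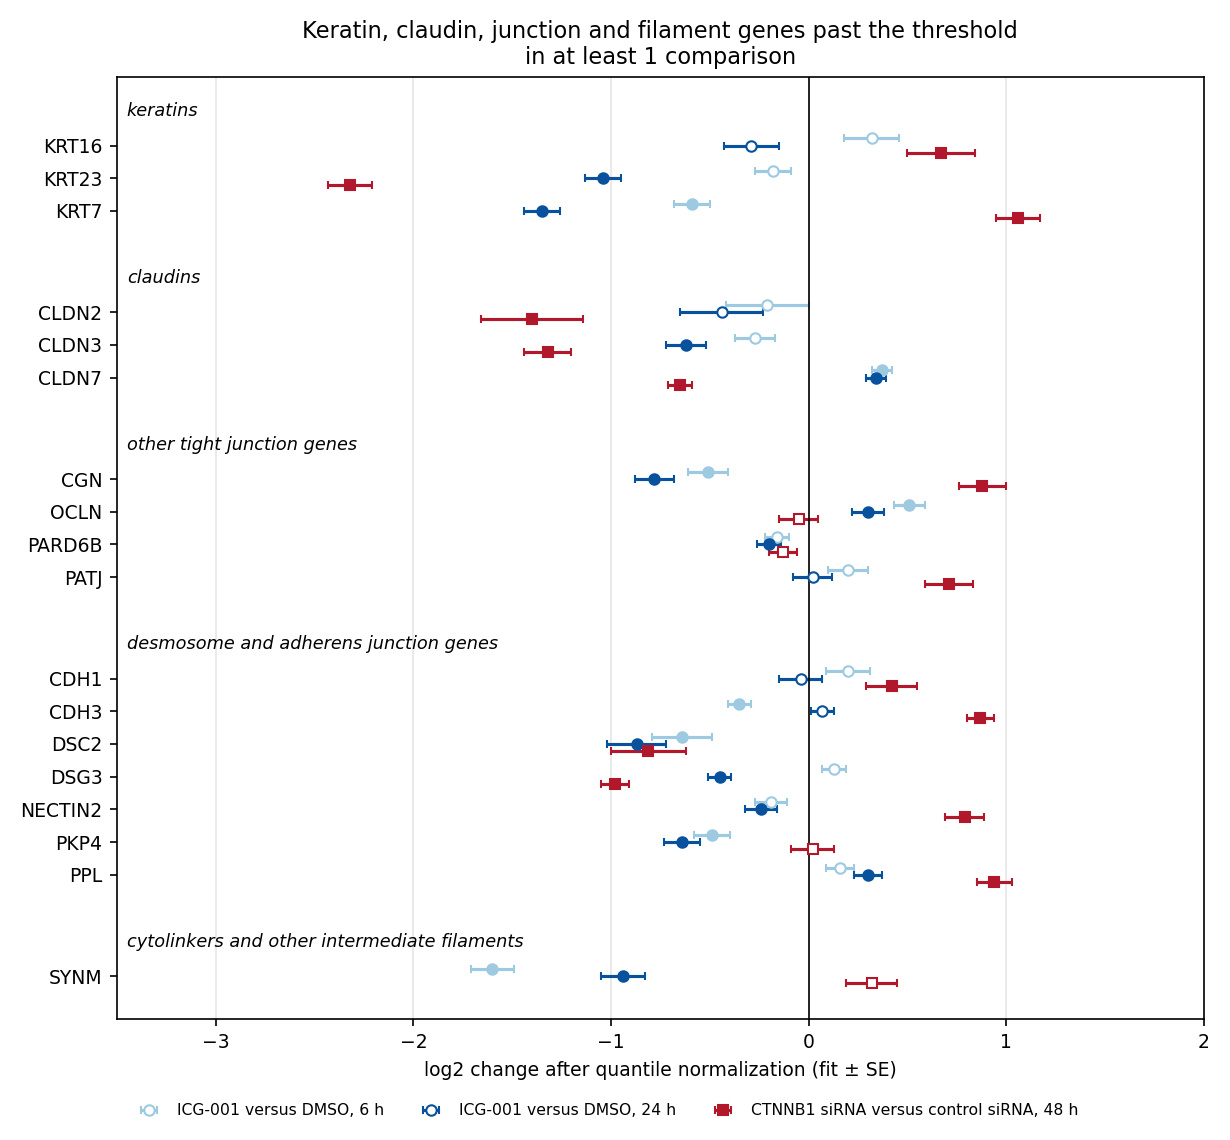
Fitted log2 change ± SE after quantile normalization of the keratin, claudin, junction and filament genes past the threshold in at least 1 of 3 comparisons: ICG-001 at 6 h (light circles), ICG-001 at 24 h (dark circles) and CTNNB1 siRNA (squares), with filled symbols where the adjusted p is under 0.05. KRT7 and CGN lie below 0 with ICG-001 (-1.35 and -0.78 at 24 h) and above 0 with CTNNB1 siRNA (1.06 and 0.88), whereas KRT23, CLDN3 and DSC2 lie below 0 in all 3, some of them unfilled at 6 h. KRT7 is drawn for its brighter probe set, and the second had the opposite signs.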

How the data were processed

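Total RNA of AsPC-1 cells was labelled with biotin for Affymetrix arrays, per the labels' protocols. The authors deposited 1 linear intensity for each probe set on each array, from 0.55 to 19346.51. How probes were summarised and scaled is not given in the sources used here. All 9554 probe sets had a coefficient of variation of at least 0.40 over the 16 arrays, so the table is a selection and genes that varied little are outside every count. Groups were taken from the labels, and 0 pairs of arrays were identical.

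Probe sets listed with 1 gene (6442) were kept, 252 with several genes and 2860 with none were left out, and symbols of 6432 were matched to current ones. Values were transformed to log2(intensity + 16) and quantile normalized. The probe set with the highest mean stood for each of 5250 genes. All 6 groups were fitted in limma 3.58.1 (R 4.3.3) with lmFit and eBayes with an intensity trend, with 10 residual and 7.84 prior degrees of freedom, two-sided tests and Benjamini-Hochberg adjustment over all genes, and a gene was called at an adjusted p under 0.05. The fit was tested on simulated data. Alternatives were the deposited scaling, median centring, 1 or 64 added before log2, a filter at the 25th percentile, every probe set as a feature, the arrays of 1 experiment alone, the replicate number as a block, and leaving out each array. The number of arrays limits the precision.

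The 3 genes and all lists were chosen with earlier results of these data known. Besides the 3 genes, the text names list genes called in at least 1 main comparison, to at most 8 a list, and for each of the 3 genes the 3 genes of highest correlation. Listed marker genes, CLDN15, and KRT19 and VIM among the list genes not called, were named after their values were seen. Promoter sequence is from RefSeq on GRCh38.p14, for 1 of the 3 genes.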

Additional observations from a re-analysis of the deposited data

Results flagged for a closer look

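The change with ICG-001 differed between the times, by a test of the difference itself (limma, adjusted over all genes), for 9 of the named genes. Over all genes the share was 7.81% (410 of 5250). The named genes were chosen with these same arrays, so nothing is read from their count. For KRT7 on its brighter probe set the log2 change at 24 h minus that at 6 h was -0.76. On the second KRT7 probe set this difference was -0.14 and did not pass. For KRT23 it was -0.86. The KRT7 and KRT23 values are descriptions, since these genes were chosen on the same arrays. For DSG3 it was -0.58 and for CDH3 0.42. For SYNM it was 0.66, the fall at 24 h being the smaller one. It was -0.65 for SCEL (adjusted p = 0.000277), -0.72 for LONRF2 (0.00557), -0.78 for PPP1R1B (0.0158) and -0.47 for IFI27L2 (0.0451), which were named for their likeness to KRT7 or KRT23 on these arrays.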

How the results depend on the processing

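The number of genes called with CTNNB1 siRNA moved from 631 to 414 with arrays centred on their medians and to 289 in a fit of the siRNA arrays alone. The balance of directions with ICG-001 turned with the scaling. At 6 h 292 genes were called higher and 432 lower, against 406 and 244 under the deposited scaling and 370 and 222 with median centring. At 24 h these were 484 and 592, against 738 and 385 under the deposited scaling and 544 and 554 with median centring. Leaving out 1 array at a time gave 623 to 662 genes at 6 h of ICG-001 (724 with all arrays), 934 to 1024 at 24 h (1076), 484 to 669 with CTNNB1 siRNA, 343 to 407 for the 24 h change minus the 6 h change (410), 371 to 413 for DMSO over time (453) and 733 to 850 for the drug change minus the siRNA change (835).

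Of 273 values of KRT7, KRT23 and CLDN3 under an alternative, 261 kept sign and side of the threshold, 3 no longer passed, 4 newly passed and 5 changed sign. Of the 5, KRT23 at 6 h of ICG-001 was 0.07 under the deposited scaling and 0.05 with median centring, and KRT7 in DMSO over time was 0.00 under the deposited scaling, 0.01 without DMSO 6 h replicate 2 and 0.13 without DMSO 24 h replicate 1, with a range of -0.09 to 0.13 when 1 array was left out. The CLDN3 difference between the drug and siRNA changes ran from 0.44 to 0.96 when 1 array was left out, and it passed each time.

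Other signs that turned were, under the deposited scaling, CDH3 (0.00) and PARD6B (0.36) at 6 h and CDH1 (0.15), DSG3 (0.10) and PARD6B (0.32) at 24 h, and with median centring PARD6B at 6 h (0.35) and 24 h (0.19) and CDH1 at 24 h (0.02). Leaving out 1 array turned CDH1 (0.05, DMSO 24 h replicate 3, range -0.14 to 0.05) and PATJ (-0.02, DMSO 24 h replicate 2, range -0.02 to 0.08) at 24 h. With CTNNB1 siRNA it turned OCLN (0.05, control siRNA replicate 1, and 0.01, CTNNB1 siRNA replicate 2, range -0.15 to 0.05) and PKP4 (-0.04, control siRNA replicate 2, and -0.05, CTNNB1 siRNA replicate 2). The cause was not tested.

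Arrays that share a replicate number did not deviate together (correlations from -0.04 to 0.09). With the replicate number as a block, 734 genes were called at 6 h, 1093 at 24 h and 656 with CTNNB1 siRNA. CLDN3 then passed at 6 h (-0.27) and in the 24 h change minus the 6 h change (-0.35), as in a fit of the drug arrays alone. KRT16 passed at 6 h (0.32) and 24 h (-0.29), and NECTIN2 at 24 h (-0.24) and CDH1 with CTNNB1 siRNA (0.42) no longer passed. Of the 12 drug arrays, 7 correlated best with the array of their own number in the matching group. Signals near background limit the low genes, such as CDH1 and PATJ in the siRNA groups.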
